A study of Danio rerio with 9 samples.

Results

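The 34 genes described here were chosen by their counts: each had at least 1 CPM (the gene's count scaled to the total count of its library) in every MZmondoa library, and no wild-type library above 25% of the lowest mutant value. They were taken from 32055 gene identifiers, of which 16962 passed the filter on low counts. All 34 passed it, 31 have a gene symbol, and 0 znfl1 genes had to be left out. RNA was sequenced from pools of zebrafish embryos in 9 libraries, with 3 of MZmondoa mutants with affected epiboly, 3 of MZmondoa mutants with unaffected epiboly and 3 of wild-type embryos. All groups carry the sample label of 5 hours post fertilization, whereas the study's methods describe collection when control epiboly was nearly complete.

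MZmondoa embryos lack both the maternal and the zygotic function of mondoa (gene symbol mlxip) and came from crosses between homozygous fish of a single mutant line. That line goes back to a CRISPR-injected founder and carries a small deletion in an exon of mlxip. The wild-type fish descended from the AB or golden strains. Every mutant library therefore shares the mlxip lesion and whatever other alleles the line carries, so an effect of the absence of MondoA and an effect of alleles of the line cannot be told apart in these libraries.

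MondoA is a transcription factor that pairs with Mlx, binds carbohydrate response elements and activates metabolic genes when glucose phosphates accumulate. In zebrafish its transcript is supplied by the mother. That transcript is present in the blastoderm and the yolk syncytial layer while the blastoderm spreads over the yolk, the movement called epiboly. Mondo factors are mainly known as activators.

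Total counts ran from 29653702 to 32417640 in affected, 27567897 to 30897569 in unaffected and 31249988 to 39299268 in wild-type libraries, so that 3 counts correspond to 0.0763 to 0.109 CPM. Targeted mlxip served as the check of the labels, with 14.7, 15.5 and 12.6 CPM in affected, 21.2, 20.6 and 13.3 CPM in unaffected and 115, 113 and 51.9 CPM in wild-type libraries. It was lower in both mutant groups, with a log2 fold change of −2.65 in affected (SE 0.29, adjusted p = 0.000252) and −2.33 in unaffected libraries (SE 0.29, adjusted p = 0.000963, edgeR quasi-likelihood test with Benjamini-Hochberg adjustment). All 10 markers of the epiboly stage that were looked for, such as sox3, tbxta and gsc, passed the filter. Whether the 3 libraries of a group came from separate clutches is not stated, so p-values measure only the spread between these samples.

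Of the annotated genes, 4 are known from immune signalling. Protein kinase C theta, encoded by prkcq and known in mammals for relaying the T cell receptor signal, had 24.4, 11.1 and 9.47 CPM in affected and 9.25, 16.1 and 10.2 CPM in unaffected libraries, against 0.0960, 0.0879 and 0.204 CPM in wild-type libraries. The lowest mutant library was thus 45.4 times the highest wild-type library, and the level within the mutants varied by a factor of 2.64, with affected replicate 1 at the top. The fitted log2 fold change was 6.83 (SE 0.54) for affected and 6.45 (SE 0.54) for unaffected against wild-type libraries. These wild-type contrasts chose the genes and are given as description with no test.

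The unc93b1 gene encodes a carrier that brings nucleic acid-sensing Toll-like receptors to endosomes. It had 8.77, 9.42 and 8.82 CPM in affected, 13.8, 18.5 and 12.5 CPM in unaffected and 1.15, 0.733 and 0.509 CPM in wild-type libraries. Here the 3 groups formed 3 separate levels, with unaffected mutants highest and affected mutants between them and wild-type. Fitted log2 fold changes over wild-type were 3.58 (SE 0.26) in affected and 4.26 (SE 0.27) in unaffected mutants.

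The receptor gene il23r, whose product binds interleukin 23 on mammalian lymphocytes, showed the opposite order of the mutant groups, with 5.19, 4.87 and 4.60 CPM in affected and 3.08, 3.07 and 2.75 CPM in unaffected libraries, against 0.0320, 0.0586 and 0.127 CPM in wild-type libraries. The 3 groups did not overlap, and the wild-type values rest on few counts and differ among themselves. For nlrp12l2, named as a member of the NLR family of cytoplasmic sensors, values were 8.97, 5.48 and 6.11 CPM in affected, 6.42, 7.08 and 5.21 CPM in unaffected and 0.0320, 0.176 and 0.0509 CPM in wild-type libraries. The mutant groups overlapped and both stood far above wild-type, with a lowest mutant library 29.6 times the highest wild-type one.

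A further 5 annotated genes have roles in matrix, adhesion, development or hormone supply. Thyroglobulin (tg), the protein on which thyroid hormone is made, had 14.1, 13.9 and 12.3 CPM in affected, 14.5, 15.6 and 12.3 CPM in unaffected and 0.672, 0.879 and 0.916 CPM in wild-type libraries. The mutant libraries were nearly level, differing by a factor of 1.27, at means of 13.4 ± 0.99 CPM in affected and 14.1 ± 1.7 CPM in unaffected against 0.822 ± 0.13 CPM in wild-type libraries (SD, n = 3 each). The T-box factor gene tbx20, known for its part in heart development, had 4.59, 4.39 and 1.88 CPM in affected, 5.62, 5.54 and 3.24 CPM in unaffected and 0.352, 0.205 and 0.153 CPM in wild-type libraries. In both mutant groups replicate 3 was the low library. The wild-type values rest on 11, 7 and 6 counts, so the order of those libraries is uncertain.

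The remaining genes of that kind were close to the lower limit of the rule. Laminin alpha 2 (lama2), a chain of the basement membrane around muscle, lay between 1.17 and 1.64 CPM in the 6 mutant libraries and at 0.0640, 0 and 0.102 CPM in wild-type libraries. The cadherin gene cdh30 had 1.55, 2.42 and 1.82 CPM in affected, 2.00, 1.71 and 2.69 CPM in unaffected and 0.256, 0.0586 and 0.382 CPM in wild-type libraries. For il1rapl2, a relative of the interleukin 1 receptor accessory protein, values were 1.42, 1.06 and 1.26 CPM in affected, 1.60, 1.32 and 2.17 CPM in unaffected and 0.0320, 0.0879 and 0.204 CPM in wild-type libraries. At these levels a wild-type value rests on a handful of counts, and the ratio of mutant to wild-type is correspondingly loose.

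Numbered zinc finger genes made up a further 5 of the 34. They belong to a large zebrafish family of near-identical genes for DNA-binding proteins, many of them lying together on the long arm of a single chromosome. The highest of them, znf1147, had 19.2, 9.68 and 9.59 CPM in affected, 7.65, 13.5 and 8.03 CPM in unaffected and 0.416, 0.205 and 0.153 CPM in wild-type libraries. For znf1105 the values were 12.0, 6.58 and 5.74 CPM in affected, 4.53, 7.84 and 4.82 CPM in unaffected and 0.128, 0.234 and 0.305 CPM in wild-type libraries. Both genes had the same 2 high mutant libraries, affected replicate 1 and unaffected replicate 2. These were also the 2 highest mutant libraries for prkcq, znf979 and znf1018, among others. The other 3 zinc finger genes were znf1054, znf979 and znf1018. Their lowest mutant libraries had 6.13, 3.52 and 1.55 CPM and their highest wild-type libraries 0.469, 0.331 and 0.384 CPM. Only uniquely mapped read pairs were counted, so values of near-identical copies are uncertain.

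Of the remaining 20 genes, 17 are named after a genomic clone or cDNA and 3 have no symbol, and no function is given to them in the tables used here. The clone-named genes reached from 1.45 to 8.05 CPM in their lowest mutant library, and that library was between 4.21 and 97.1 times the highest wild-type one. The highest value of that ratio, chosen for naming after it was seen, belonged to si:dkey-11e6.6, with 3.98, 3.61 and 3.52 CPM in affected, 3.74, 3.49 and 3.11 CPM in unaffected and 0.0320, 0 and 0 CPM in wild-type libraries. A single count in 1 wild-type library is all that it had there, and the pooled ratio of mutant to wild-type was 373 with a 95% exact interval of 66.8 to 14772, which covers counting error only. ENSDARG00000112019, also named after its values were seen, had 2.83, 2.35 and 2.25 CPM in affected, 1.56, 1.88 and 2.20 CPM in unaffected and 0.0320, 0 and 0.0254 CPM in wild-type libraries. No group overlapped another there, although the highest unaffected and the lowest affected library were close. Its wild-type libraries held 2 counts in all, with a pooled ratio of 115 (interval 31.5 to 950).

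Other clone-named genes far from wild-type were si:ch211-132b12.1, with 5.24 to 8.32 CPM in mutants and at most 0.178 CPM in wild-type libraries, and si:dkey-207m2.4, with 7.61 to 12.8 CPM in mutants and at most 0.382 CPM in wild-type libraries. The genes si:ch211-215p11.1 and si:ch211-215p11.5 carry the name of the same clone, so they lie on the same stretch of the genome. They had 1.85 to 3.04 and 1.49 to 3.44 CPM in mutants, against at most 0.440 and 0.0763 CPM in wild-type libraries. The genes si:dkey-8o9.5, si:ch211-209p16.1 and si:dkey-176f19.6 reached the higher levels of 4.95 to 10.9, 6.14 to 11.6 and 8.05 to 14.3 CPM in mutants, against at most 0.384, 0.736 and 1.79 CPM in wild-type libraries. Lower ones were si:dkey-199k11.5 (2.01 to 4.79 CPM in mutants, at most 0.205 CPM in wild-type), si:dkey-269o24.1 (2.65 to 4.79 CPM, at most 0.288 CPM), si:dkey-56m15.6 (1.71 to 3.84 CPM, at most 0.234 CPM) and si:rp71-36a1.3 (1.45 to 1.995 CPM, at most 0.102 CPM). In all but the last of these 7, affected replicate 1 was the highest mutant library.

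**Figure D1:**
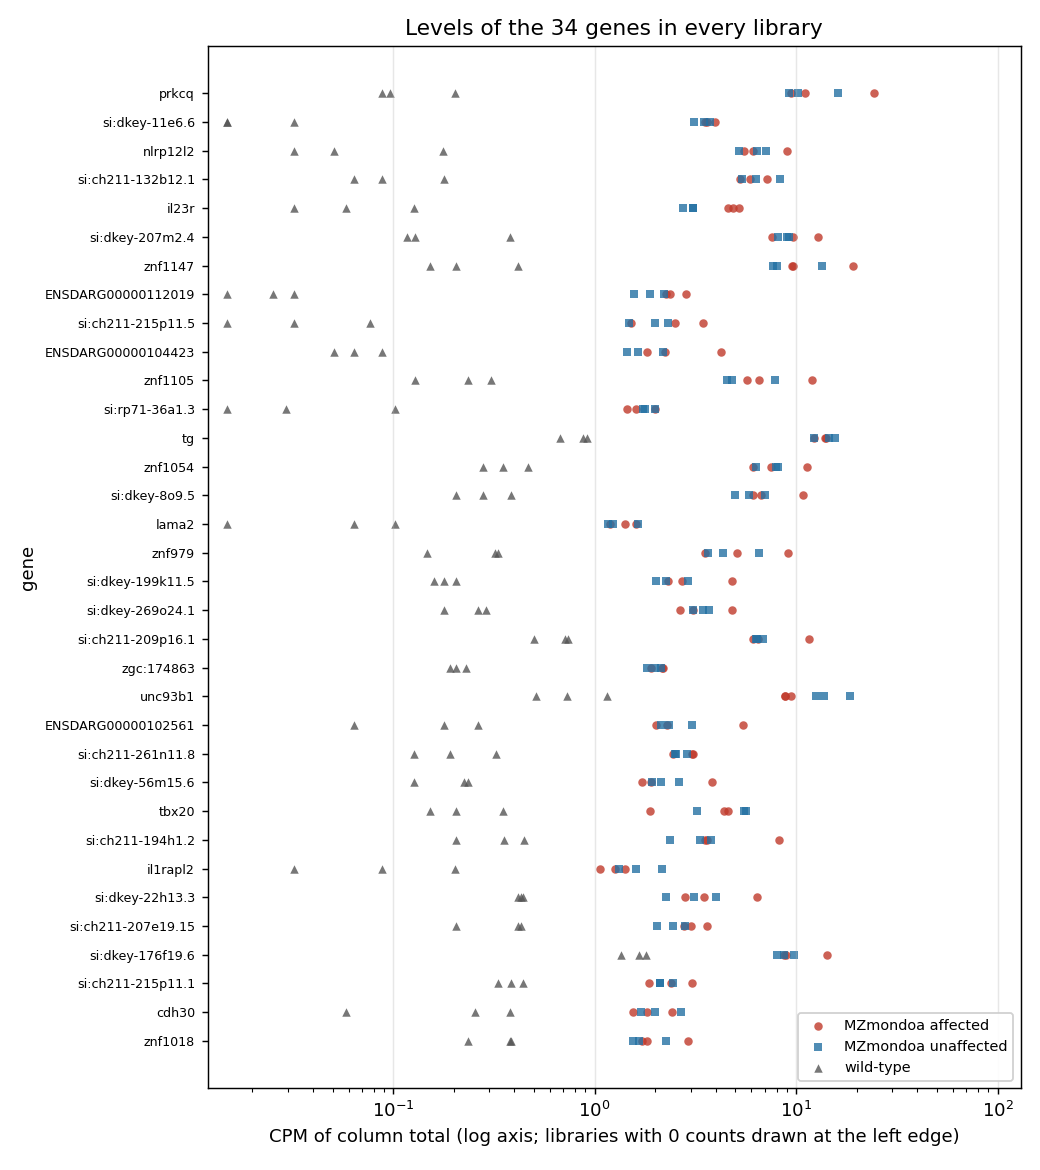
CPM of the 34 genes (log axis) in each of the 9 libraries, in order of the lowest mutant level over the highest wild-type level (set to at least 3 counts) and with libraries at 0 counts drawn at the left edge. Affected (red circles) and unaffected (blue squares) mutant libraries intermingle for most genes, and il23r, unc93b1 and ENSDARG00000112019 show separate mutant groups, while the wild-type libraries (grey triangles) lie at or below 1.79 CPM.

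Over all 34 genes the lowest mutant library had 1.06 to 12.3 CPM (median 2.4) and was 4.05 to 97.1 times the highest wild-type library (median 10.2). Across the 32 genes with more than 3 wild-type counts, log2 fold changes ran from 2.71 to 6.83 (median 4.14) in affected and from 2.45 to 6.45 (median 4.14) in unaffected mutants against wild-type. By the rule itself all 34 were higher in both mutant groups, where 30.3% of all tested genes passed in affected (15.4% higher and 15% lower) and 9.6% in unaffected mutants (4.65% higher and 4.95% lower) against wild-type. The mirrored rule, low in every mutant library and present in every wild-type one, found 48 genes.

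The limits of the rule cut through a continuous range. Just inside it were znf1018 and cdh30, whose highest wild-type library stood at 24.7% and 24.6% of the lowest mutant library, and just outside were znf1064 at 25.3% and znf1106 at 26.0%. By level, il1rapl2 (1.06 CPM) and lama2 (1.17 CPM) were the lowest genes inside, whereas ENSDARG00000099198 (0.956 CPM) and brinp1 (0.871 CPM) were left out. The zinc finger gene znf1064 had 16.1, 8.48 and 9.44 CPM in affected, 8.31, 9.90 and 7.83 CPM in unaffected and 1.54, 1.58 and 1.98 CPM in wild-type libraries, with affected replicate 1 highest among the mutants as for znf1147 inside the rule.

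The contrast of affected with unaffected mutants did not itself enter the rule, but the rule used the levels of every mutant library. Genes gained in a single mutant group could not be chosen, so large differences between the groups were partly excluded beforehand. The counts below therefore cannot decide whether a gain in the mutants follows the epiboly phenotype, and describe these genes only. Of the 34 genes, 0 passed the threshold of 0.05 (edgeR quasi-likelihood test with Benjamini-Hochberg adjustment over 16962 genes), beside 2.99% of all genes tested (1.88% higher and 1.11% lower). At an unadjusted p under 0.05 there were 2, a level for which the share over all genes is not given here. DESeq2 called 2 of the 34, and 1224 over all genes. The fit with the replicate number as a block called 0 of the 34. Over all genes the block raised the calls to 1399, against 507 without it. The log2 fold changes ran from −0.68 to 0.77 with a median of 0.26, beside a median of −0.01 over all genes, and 27 of the 34 were positive. Without affected replicate 1, 20 of the 34 were positive.

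Libraries of the affected and unaffected groups did not overlap for 3 of the 34 genes, beside 26.8% of all genes tested. In il23r and ENSDARG00000112019 the affected libraries were the higher ones, and in unc93b1 the lower ones. The il23r difference was 0.77 on the log2 scale (SE 0.21, adjusted p = 0.0779, edgeR), and over the alternative analyses its adjusted p ran from 0.00696 with DESeq2 to 0.236. It passed the threshold with DESeq2, with only the 6 mutant libraries in the fit (adjusted p = 0.0357) and without wild-type replicate 3 (adjusted p = 0.0347). The unc93b1 difference was −0.68 (SE 0.22, adjusted p = 0.124, edgeR, range 0.0333 to 0.322), past the threshold with DESeq2 alone. For tg the difference was −0.02 (SE 0.15) and for prkcq 0.38 (SE 0.35, adjusted p = 0.62, edgeR).

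**Figure D2:**
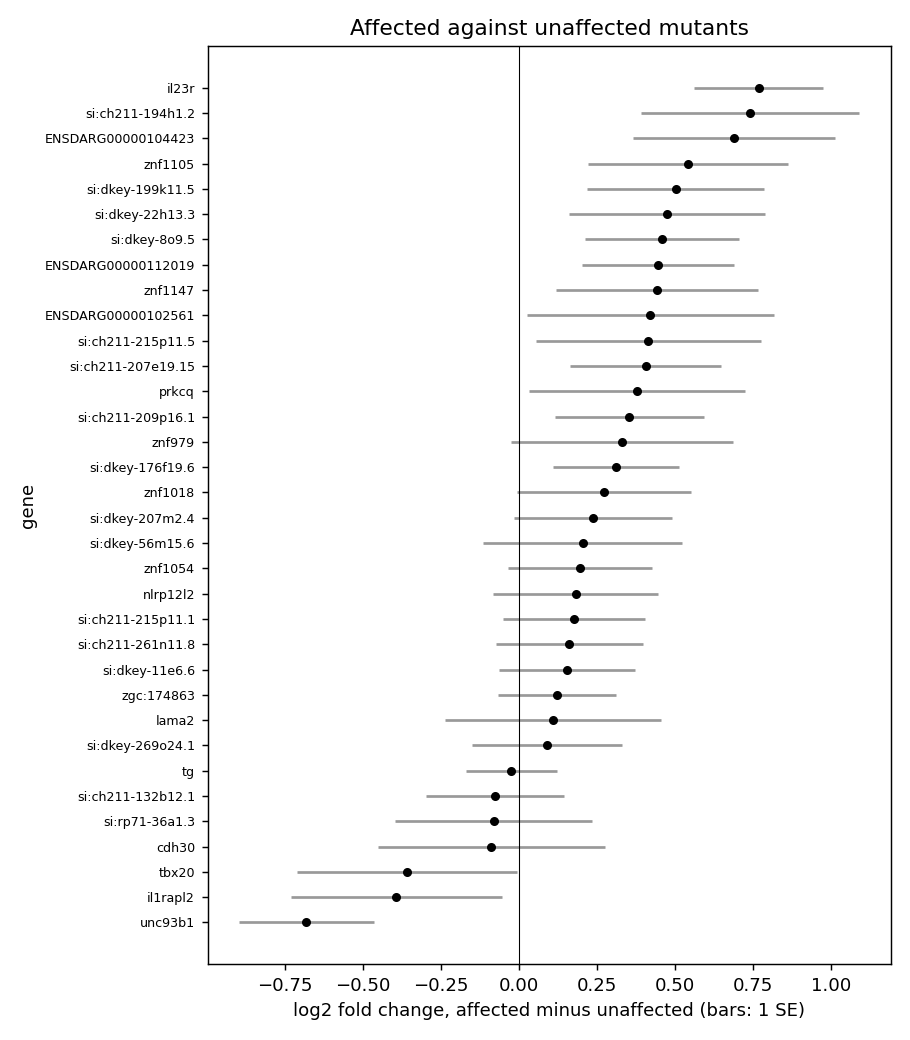
Log2 fold change of each of the 34 genes in affected minus unaffected mutants, with bars of 1 SE from the edgeR fit. Values lie between −0.68 (unc93b1) and 0.77 (il23r), and 27 are above 0.

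A single library stood out among the mutants. Affected replicate 1 was the highest of the 6 mutant libraries for 24 of the 34 genes, beside 14.7% of all tested genes. No other mutant library was highest for more than 3. Relative to the median of the other 5 mutant libraries, affected replicate 1 was at 1.53 times as a median over the 34 genes (range 0.702 to 2.39) and above 1 for 32, whereas the median over all tested genes was 0.987.

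As counted, this excess of affected replicate 1 was uneven over the kinds of gene. Most kinds hold few genes, and the difference between kinds was not tested. All 5 numbered zinc finger genes, all 3 genes without a symbol, 13 of 17 clone-named genes and 3 of the 4 immune signalling genes had their highest mutant value in that library, against 0 of the 5 matrix, adhesion, development and hormone genes. The clone-named si:ch211-194h1.2 is an example, with 8.23, 3.61 and 3.52 CPM in affected, 3.77, 3.35 and 2.36 CPM in unaffected and 0.448, 0.205 and 0.356 CPM in wild-type libraries. Of the 115 numbered zinc finger genes outside the rule, 46 peaked in affected replicate 1 (40%, beside 14.7% of all tested genes). Relative to the median of the other 5 mutant libraries, that library was at 1.03 times as a median over these 115. It was above 1 for 62 of them (53.9%, beside 47.3% of all tested genes).

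Marker lists were summed to set beside this excess. The enveloping layer genes (16 of 16 tested), which mark the outer epithelium, summed to 10815, 11169 and 12235 CPM in affected, 14962 to 17406 CPM in unaffected and 13150 to 16731 CPM in wild-type libraries. The epiboly stage genes (10 of 10 tested) summed to 3974, 4287 and 4716 CPM in affected, 5519 to 6562 CPM in unaffected and 5113 to 6285 CPM in wild-type libraries. Most of the epiboly stage sum is krt4, a keratin that the enveloping layer list holds as well, and without it the sums were 1007, 1167 and 1090 CPM in affected, 961 to 1046 CPM in unaffected and 857 to 999.7 CPM in wild-type libraries. By gene, 4 of the epiboly stage list were higher (sox32, eve1, vox and vent) and 2 lower (krt4 and tp63) in affected mutants than in wild-type. That was 60%, beside 30.3% of all tested genes. Of the enveloping layer list 3 were higher (cldne, cldnf and grhl3) and 6 lower (56.25%). The segmentation onset markers (15 identifiers tested) summed to 795, 974 and 848 CPM in affected, 936 to 1038 CPM in unaffected and 950 to 1159 CPM in wild-type libraries. Of these 15, 4 were higher and 5 lower in affected mutants than in wild-type (60%). The yolk syncytial markers (11 identifiers tested) summed to 4966, 5059 and 4185 CPM in affected, 3177 to 3578 CPM in unaffected and 3443 to 3512 CPM in wild-type libraries, so that affected replicate 1 lay within its group. Of these 11, 8 were higher and 0 lower in affected mutants than in wild-type (72.7%). Affected replicate 1 was the lowest affected library in the sums for the enveloping layer and the epiboly stage, each with or without krt4. For segmentation onset it was the lowest in the full sum only. Without msgn1, the most abundant gene of that list, the sums were 581, 614 and 543 CPM in affected libraries. They were then 593 to 619 CPM in unaffected and 588 to 658 CPM in wild-type libraries. The part of these markers in the excess of affected replicate 1 was not tested, and in pooled embryos fewer cells of a type and less RNA per cell cannot be told apart.

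**Figure D3:**
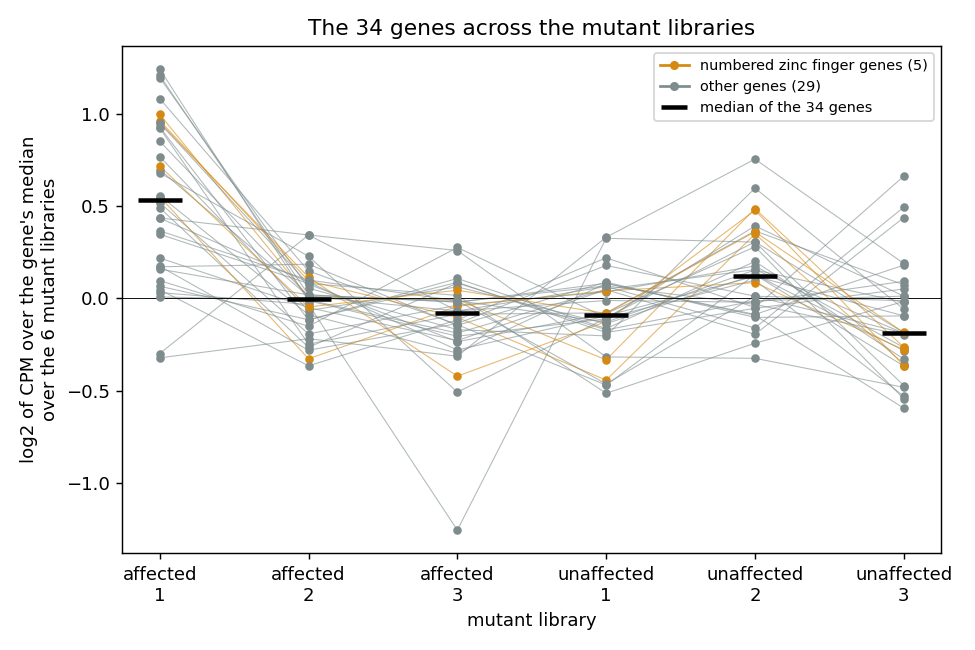
Log2 of each gene's CPM over its own median across the 6 mutant libraries, with a line per gene, numbered zinc finger genes in orange and black bars for the median of the 34 genes. Affected replicate 1 is above the gene's median for most genes, and the low point in affected replicate 3 is tbx20.

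Leukocyte genes were looked at because 4 of the 34 genes are known from immune cells. Of the 12 leukocyte identifiers matched, 5 passed the filter, and ptprc, spi1, laptm5 and fcer1g were at or near 0. Also below the filter, csf1ra had 0, 0.0968 and 0 CPM in affected and 0, 0.0349 and 0.0647 CPM in unaffected libraries. Its wild-type libraries were higher, at 0.480, 0.264 and 0.331 CPM, on 15, 9 and 13 counts. The summed level of the list was 224 to 238 CPM in affected, 247 to 288 CPM in unaffected and 269 to 431 CPM in wild-type libraries. Nearly all of that sum came from lcp1, the actin bundler L-plastin, with 213, 200 and 209 CPM in affected, 228, 266 and 244 CPM in unaffected and 250, 263 and 415 CPM in wild-type libraries. Coronin 1a (coro1a), an actin regulator of blood cells, had 1.21, 1.71 and 1.05 CPM in affected, 0.979, 1.22 and 0.841 CPM in unaffected and 0.288, 0.176 and 0.407 CPM in wild-type libraries. It rose in both mutant groups, by 2.22 in affected (adjusted p = 0.00172) and 1.78 in unaffected mutants (adjusted p = 0.0145) on the log2 scale (edgeR). Against wild-type, 2 of the 5 tested genes were higher (coro1a and rac2) and 1 lower (lcp1) in affected mutants. That was 60%, beside 30.3% of all tested genes. In unaffected mutants 1 was higher and 0 lower (20%, beside 9.6%). Median log2 fold changes were 0.75 in affected and 0.38 in unaffected mutants. Without lcp1 the sums were 24.1 to 24.9 CPM in affected, 16.0 to 22.3 CPM in unaffected and 16.1 to 22.3 CPM in wild-type libraries. Affected libraries were thus above all others by this sum and below the wild-type ones with lcp1 in it, and the part of leukocyte genes in the levels of the 34 genes was not tested.

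The families of the annotated genes were read without the genes that the rule had chosen, and with the 30.3% and 9.6% of all tested genes that passed in affected and unaffected mutants beside them. Of 12 other tested identifiers of the protein kinase C family, 2 were higher and 2 lower in affected (33.3%) and 1 higher and 0 lower in unaffected mutants (8.33%) than in wild-type. Both shares were close to those of all genes. The higher one in both groups was an identifier of prkch, the eta isoform, with 34.4, 29 and 34 CPM in affected, 34.1, 32.4 and 29.97 CPM in unaffected and 28.0, 22.3 and 22.2 CPM in wild-type libraries. Its libraries did not overlap between either mutant group and wild-type, with log2 fold changes of 0.49 (adjusted p = 0.00943) in affected and 0.43 (adjusted p = 0.0413) in unaffected mutants (edgeR), far smaller than those of prkcq. In affected mutants the atypical isoform gene prkcz was higher (log2 fold change 1.09) and both identifiers of prkce, the epsilon isoform, were lower (−0.78 and −2.02). The median log2 fold change of these 12 was −0.03 in affected and −0.12 in unaffected mutants, beside −0.02 and −0.01 over all genes.

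Of 8 tested genes of the endosomal Toll-like receptor list other than unc93b1, 4 were higher and 1 lower in affected (62.5%) and 2 higher and 0 lower in unaffected mutants (25%). Those 2 were the receptor gene tlr3 and hsp90b1, which encodes the chaperone that folds Toll-like receptors. The other matched receptor genes (tlr7, tlr8b, tlr9, tlr20.1, tlr21 and tlr22) were too low to be tested, as were ticam1 and irak4. For tlr3 the values were 6.04, 4.35 and 4.66 CPM in affected, 4.93, 5.54 and 5.05 CPM in unaffected and 1.15, 3.61 and 1.65 CPM in wild-type libraries, and log2 fold changes were 1.28 in both mutant groups (adjusted p = 0.0197 in affected and 0.0457 in unaffected mutants, edgeR). For hsp90b1 they were 130, 142 and 167 CPM in affected, 125, 89.2 and 108 CPM in unaffected and 69.1, 43.8 and 67.5 CPM in wild-type libraries. Neither gene overlapped between mutants and wild-type. In affected mutants lman1, a cargo receptor of the secretory pathway, was also higher (log2 fold change 0.80), as was irf3 (1.97), while traf6 was lower (−0.31). The median log2 fold change of the 8 was 0.57 in affected and 0.40 in unaffected mutants. Over all 4 lists, 4 identifiers outside the 34 genes passed in unaffected mutants against wild-type, prkch, tlr3, hsp90b1 and plcg1, and 7 with the replicate block. That number was 0 without unaffected replicate 1, and 1 without unaffected replicate 2, without affected replicate 2 or without affected replicate 3.

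Of 9 tested identifiers of thyroid hormone synthesis other than tg, 0 passed in unaffected mutants, and tshr, iyd and foxe1 were too low to be tested. In affected mutants 2 were higher and 2 lower (44.4%, beside 30.3% of all tested genes): the iodide transporter gene slc26a4 (log2 fold change 0.74) and hhex (1.08) were higher, and pax8 (−1.27) and the oxidase gene duox (−0.80) lower. For T cell receptor signalling, 12 identifiers other than prkcq were tested. Too low to be tested were lck, zap70, itk, lcp2a, cd28, cd4-1, cd8a and nfatc1. Of the 12, 1 was higher and 4 lower in affected (41.7%) and 0 higher and 1 lower in unaffected mutants (8.33%, beside 9.6%). Among the lower ones in affected mutants were malt1 (log2 fold change −1.52), plcg1 (−0.53) and rela (−0.43), and nfkb2 (0.89) was the higher one. The paracaspase gene malt1 had 0.776, 1.03 and 0.956 CPM in affected, 1.74, 1.74 and 2.3 CPM in unaffected and 2.72, 2.32 and 3.26 CPM in wild-type libraries. Its affected libraries lay below all others, and it fell in affected against unaffected mutants by 1.01 on the log2 scale (adjusted p = 0.0491, edgeR). Of the identifiers on the 4 lists, 2 passed between the mutant groups, a number that was 0 without affected replicate 2 and 1 without affected replicate 1, any unaffected library or wild-type replicate 1 or 2.

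The position of the genes was not used by the rule. A gene order was taken from the RefSeq annotation of another assembly, in which 13 of the 34 genes could be placed, on 10 chromosomes. The mlxip gene lies on chromosome 5. Of the 13 placed genes 0 lay on that chromosome, beside 713 of 11917 placed tested genes (5.98%). Hence 0 were within 25, 50 or 100 genes of mlxip, beside 19, 38 and 81 of the 11917. With shares this small, 13 genes are too few for a count of 0 to be informative. None of the 16 placed genes of the mirrored rule lay on chromosome 5 either. The other 21 genes were not placed, and their distance from mlxip was not analysed here.

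Placed genes were also far from each other. The closest pair, il23r and zgc:174863 on chromosome 6, was 268 genes apart, followed by tbx20 and tg on chromosome 16 with 334 and by prkcq and znf1147 on chromosome 4 with 826. For 12 of the placed genes the nearest tested gene on either side was at most 10 genes away, 24 neighbours in all. The neighbours of znf1147 were farther, at 327 and 969 genes.

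These neighbours did not reach the differences of the placed genes. Of all 26, 1 was higher and 1 lower in unaffected mutants than in wild-type (7.69%, beside 9.6% of all tested genes), 4 were higher and 3 lower in affected mutants (26.9%, beside 30.3%), and 0 passed between affected and unaffected mutants. The largest gains in affected mutants were those of si:ch211-132b12.7 (log2 fold change 2.04, adjusted p = 0.00403) and tnfrsf14 (1.85, adjusted p = 0.00687, edgeR). They were neighbours of si:ch211-132b12.1 and si:ch211-261n11.8. Neither passed in unaffected mutants (log2 fold changes 0.63 and 1.25). On either side of prkcq lay sfmbt2 and pfkfb3. The first had 1.85, 1.55 and 1.48 CPM in affected, 0.435, 1.46 and 1.75 CPM in unaffected and 2.46, 1.88 and 1.63 CPM in wild-type libraries, and the second 2.46, 3.26 and 2.5 CPM in affected, 2.1, 2.65 and 3.11 CPM in unaffected and 3.58, 3.46 and 2.49 CPM in wild-type libraries. Mutant and wild-type values overlapped in both, and neither gene passed the test. With the replicate block 4 neighbours passed in unaffected mutants, and 1 without unaffected replicate 1 or 2.

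Next to il23r, the related receptor gene il12rb2 had 0.607, 0.968 and 1.02 CPM in affected, 0.725, 0.593 and 0.615 CPM in unaffected and 0.832, 0.205 and 0.534 CPM in wild-type libraries, with no call. Of the neighbours of unc93b1, timm10 lay between 2.02 and 2.72 CPM in all 9 libraries. The other, si:dkey-28b4.8, had 4.82, 4.13 and 5.95 CPM in affected and 9.06, 7.42 and 8.37 CPM in wild-type libraries. It was lower in affected mutants (log2 fold change −0.68, adjusted p = 0.0292, edgeR) and did not pass in unaffected mutants (−0.50). The phosphatase gene ptp4a3b, 3 genes from tg, was the only neighbour higher in both mutant groups, with 144, 150 and 156 CPM in affected, 188, 205 and 201 CPM in unaffected and 124, 131 and 101 CPM in wild-type libraries. Its log2 fold changes of 0.40 in affected (adjusted p = 0.0138) and 0.75 in unaffected mutants (adjusted p = 0.0015, edgeR) compare with 4.08 and 4.10 for tg. A neighbour of il1rapl2, si:zfos-2326c3.2, was lower in both mutant groups (−0.79 in affected and −0.65 in unaffected), opposite to il1rapl2 itself.

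**Figure D4:**
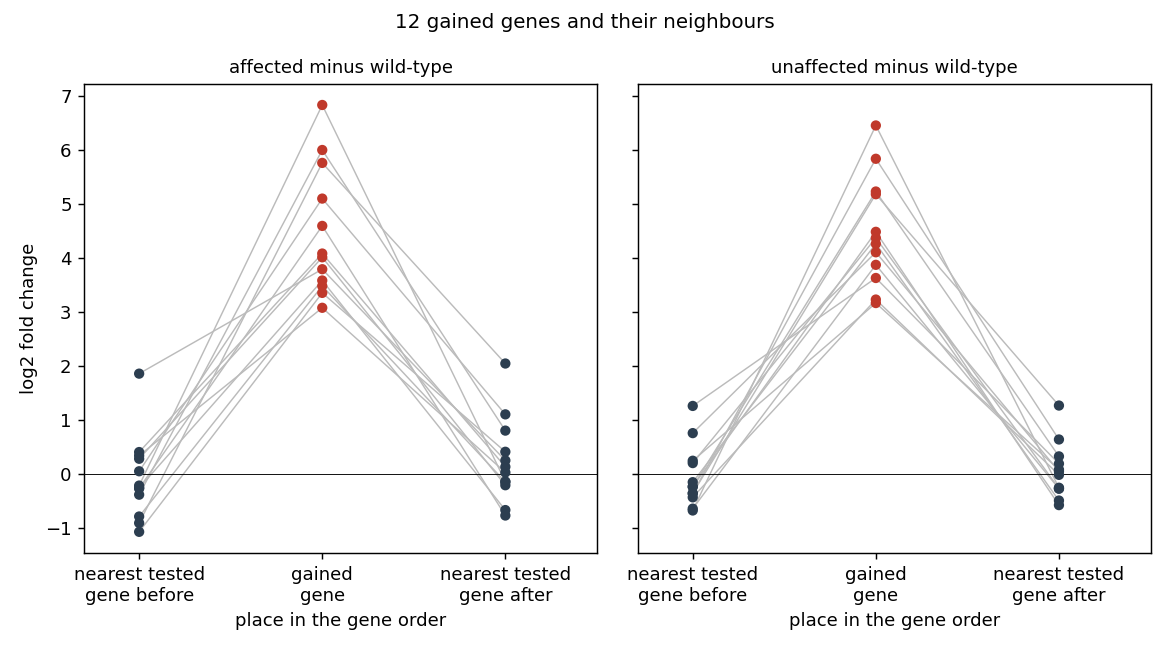
Log2 fold change against wild-type of 12 of the genes (red, centre) and of the nearest tested gene on either side in gene order (dark, left and right), joined by lines, for affected (left panel) and unaffected mutants (right panel). The neighbours within 10 genes lie between −1.08 and 2.04 in affected and between −0.68 and 1.26 in unaffected mutants. These values are below every gene of the 12, a gap that the rule partly set.

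Clone names offer a further hint of proximity, since genes named after the same clone were annotated on it. The 16 genes with such a name come from 15 clones, which hold 15 other tested genes, a comparison added after the data had been seen. Of these, 6 were higher and 1 lower in affected (46.7%, beside 30.3%) and 3 higher and 1 lower in unaffected mutants (26.7%, beside 9.6%), and none passed between the mutant groups. The gene si:dkey-22h13.2 had 14.6, 8.94 and 7.53 CPM in affected, 7.07, 9.06 and 7.41 CPM in unaffected and 2.69, 2.73 and 2.24 CPM in wild-type libraries, with its highest value in affected replicate 1 like si:dkey-22h13.3 of the same clone. It did not overlap with wild-type in either group.

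The clone mate si:ch211-261n11.9 had 0 counts in all 3 wild-type libraries and means of 0.378 CPM in affected and 0.324 CPM in unaffected mutants, at least 3.94-fold and 3.38-fold higher than the level of 3 counts in a wild-type library (0.0960 CPM). It remained below 1 CPM and so outside the rule, while si:ch211-261n11.8 was inside. The opposite occurred on the clone of si:ch211-215p11.1 and si:ch211-215p11.5, where si:ch211-215p11.4 had 0.202, 0.419 and 0.339 CPM in affected, 0.435, 0.314 and 0.324 CPM in unaffected and 1.41, 1.38 and 1.17 CPM in wild-type libraries. It fell by 1.96 in affected (adjusted p = 0.00147) and by 1.86 in unaffected mutants (adjusted p = 0.00469) on the log2 scale (edgeR), so that gains and a loss stood side by side.

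The numbered zinc finger genes as a family were spread in both directions. The name table holds 203 of them, of which 120 passed the filter. The 5 inside the rule are 4.17% of these 120 and 14.7% of the 34 genes, whereas the family is 0.707% of all tested genes. Of the 115 outside the rule, 35 were higher and 16 lower in affected (44.3%, beside 30.3% of all tested genes) and 25 higher and 13 lower in unaffected mutants (33.0%, beside 9.6%) than in wild-type. The SD of their log2 fold changes was 1.52 in affected and 1.36 in unaffected mutants, beside 0.90 and 0.73 over all genes. Their medians were 0.18 and 0.15.

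The family also held deep losses. Of the 48 genes of the mirrored rule 2 were numbered zinc finger genes. For znf1081 the values were 0.270, 0.484 and 0.432 CPM in affected, 0.435, 0.523 and 0.615 CPM in unaffected and 12.3, 10.0 and 7.33 CPM in wild-type libraries, and znf1101 had 0.337, 0.516 and 0.370 CPM in affected, 0.798, 0.383 and 0.518 CPM in unaffected and 4.51, 4.34 and 3.77 CPM in wild-type libraries. The gap between mutant and wild-type libraries is set here by the mirrored rule. Between affected and unaffected mutants only znf1017 of the 115 outside the rule passed (−0.74, adjusted p = 0.0306, edgeR). That was 0.87%, beside 2.99% of all tested genes. The block called 4, while leaving out any affected or unaffected library gave 0. Of 31 tested family members that could be placed in the gene order, 15 lay on chromosome 4, the chromosome of znf1147, beside 3.88% of all placed tested genes.

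**Figure D5:**
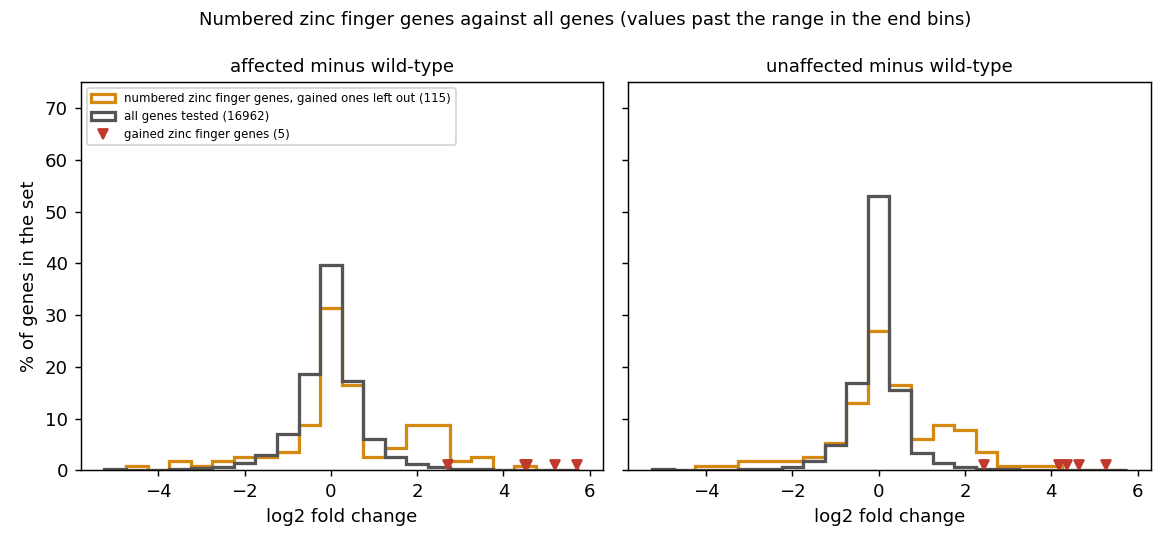
Distribution of log2 fold changes against wild-type in affected (left) and unaffected mutants (right) for 115 numbered zinc finger genes (orange outline) and for all 16962 tested genes (grey outline), as a percent of each set. Red triangles mark the 5 zinc finger genes inside the rule, and the orange outline is the wider one in both directions, with SDs of 1.52 and 1.36 against 0.90 and 0.73.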

How the data were processed

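The deposited files hold counts of exonic read pairs for each gene, not normalized. The authors aligned the reads to GRCz11 with STAR (2.4.0i in the submitters' processing notes) and assigned pairs with a unique position to Ensembl loci with SAMtools. Use of the strand in counting is not stated, so overlapping and antisense genes are uncertain. The labels name polyA RNA, whereas their protocol describes removal of ribosomal RNA.

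CPM values use column totals. Counts were tested in R 4.3.3 with edgeR 4.0.16 (filterByExpr, TMM, glmQLFit and glmQLFTest, two-sided, 9 libraries and 3 groups in 1 fit), and p-values were adjusted by Benjamini-Hochberg over 16962 genes. Comparisons with wild-type chose the genes and were not read as tests of them. Affected against unaffected mutants was tested, but the demand of the rule on every mutant library limits the differences that could appear there. Both comparisons with wild-type share the same 3 libraries. Family lists were counted without the 34 genes, and marker sums repeated without their most abundant gene, both chosen after the data had been seen. The code was tested on simulated data. Alternatives were library-size scaling, DESeq2 1.42.0, no filter, only the 6 libraries compared, a replicate block, each library left out, and other limits of the rule.

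The groups share replicate numbers. After subtraction of group means, libraries with the same number correlated at 0.169, 0.236 and 0.462 (affected and unaffected). The values were 0.123, 0.141 and 0.268 for unaffected and wild-type, and 0.0805, 0.113 and 0.260 for affected and wild-type. The main fit used no pairing, and the replicate number entered only the alternative with a block. Libraries of a group differed beyond sampling noise (chi-square 9.86 to 74.4 per degree of freedom).

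Symbols were matched for 28986 identifiers. Gene order came from RefSeq (assembly GRCz12tu, no coordinates used), in which 17161 could be placed. Promoter motifs were planned and not analysed here. Named genes are prkcq, unc93b1 and tg, the 25 genes with a symbol of largest ratio of lowest mutant to highest wild-type CPM, those at the limits of the rule and the family list genes that passed, of which 1 is not reported here. Of the marker lists only genes that a statement rests on are named. The genes and lists were chosen with earlier results of these data known.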

Additional observations from a re-analysis of the deposited data

How the results depend on the processing

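Numbers of genes passing (main value first) changed by more than 1.5 times as follows. Affected against unaffected mutants gave 507, with DESeq2 1224, with a replicate block 1399, and 42 to 697 with a library left out (67, 42 and 333 without affected replicate 1, 2 or 3, and 48 and 97 without unaffected replicate 1 or 3). Unaffected mutants against wild-type gave 1628, with only 6 libraries 965, with the block 2758, and 758 to 1797 with a library left out (809 and 758 without unaffected replicate 1 or 2). Affected mutants against wild-type gave 5144, and 3402 to 5459 with a library left out, lowest without affected replicate 2. Of the 34 genes, 0 passed between affected and unaffected mutants, 2 with DESeq2, 1 with only the 6 libraries, and 0 to 1 with a library left out. Neighbours passing were 2 in unaffected (block 4, library left out 1 to 3) and 7 in affected mutants against wild-type (block 11, library left out 5 to 8). List genes other than the 34 gave 2 between the mutant groups (only 6 libraries 1, library left out 0 to 2), 4 in unaffected (DESeq2 7, only 6 libraries 1, block 7, library left out 0 to 4) and 18 in affected mutants against wild-type (library left out 11 to 19, lowest without affected replicate 2). Numbered zinc finger genes gave 1 between the mutant groups (DESeq2 3, only 6 libraries 3, block 4, library left out 0 to 2), 38 in unaffected (26 to 39) and 51 in affected mutants against wild-type (44 to 51). Clone mates gave 4 (3 to 4) and 7 (7 to 8).

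The rule gave 34 genes also with TMM-scaled libraries, 105 with a highest wild-type level of 50% and 20 with 12.5% in place of 25% of the lowest mutant, 22 with a lowest mutant level of 2 CPM and 42 with 0.5 CPM, and 34 to 44 with a library left out. With single libraries left out, the log2 fold change between affected and unaffected mutants turned its sign without affected replicate 1 for prkcq (range −0.16 to 0.69), si:dkey-56m15.6 (−0.24 to 0.41), nlrp12l2 (−0.054 to 0.32), si:dkey-269o24.1 (−0.19 to 0.27), si:ch211-215p11.1 (−0.010 to 0.35), ENSDARG00000102561 (−0.17 to 0.68), znf1054 (−0.084 to 0.37), znf979 (−0.12 to 0.63) and cdh30 (−0.29 to 0.10). Without another library it did so for tg (−0.13 to 0.070), si:ch211-132b12.1 (−0.20 to 0.10) and si:rp71-36a1.3 (−0.21 to 0.011), and cdh30 also without unaffected replicate 3. None of these was past the threshold, and the causes were not tested. The block changed no call of the 34 genes. Wild-type levels of most of these genes rest on a few counts per library, which limits every ratio to wild-type.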
